A study of Homo sapiens with 3 samples.

Results

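The glycosyltransferases that build mucin-type sugar chains and finish the ends of glycans were examined in 3 human cell lines. The genes were chosen by symbol, as members of the GALNT, GCNT, B3GNT, B3GALT, B4GALT, FUT, ST3GAL and ST6GAL families with a transcript cluster (the array's unit for a gene) of their own, and 53 of the 14410 measured genes qualified. The lines were HT-29, a colon adenocarcinoma line kept in McCoy's 5A medium with fetal serum and exposed to interferon gamma (IFN-γ) at 200 U/ml for 24 h, MDA-MB-436, a breast adenocarcinoma line kept in L-15 medium with fetal serum, and MCF10A, a mammary epithelial line that is not a tumor line, kept in DMEM/F12 with horse serum, EGF, hydrocortisone, cholera toxin and insulin. Total RNA of each line was hybridised to 1 exon array. No IFN-γ is named for MDA-MB-436 or MCF10A, and an HT-29 culture without it was not analysed here, so line, medium and cytokine cannot be told apart wherever HT-29 is set against MDA-MB-436 or MCF10A, nor line and medium between those 2. Each line was measured once, which leaves no spread between replicates, and every difference describes these arrays without a test.

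Mucin-type chains start when a GALNT enzyme places N-acetylgalactosamine on a serine or threonine. C1GALT1 adds a galactose to that sugar, GCNT enzymes open a branch, B3GNT, B3GALT and B4GALT enzymes lengthen the arms with N-acetylglucosamine and galactose, and FUT, ST3GAL and ST6GAL enzymes cap them with fucose or sialic acid. In the colon these caps carry Lewis and blood group structures on secreted and membrane mucins, and changes in branching and capping are a known feature of epithelial tumors. Several members act outside mucins: FUT8 fucosylates the core of N-glycans, ST3GAL5 and B4GALT6 make gangliosides and lactosylceramide, and B3GALT6 and B4GALT7 build the linker of proteoglycans.

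The upstream sequence is printed for 4 members, which stood for some of the patterns. GCNT3 and GALNT12 were highest in HT-29, GALNT3 was under background in MDA-MB-436 alone, and ST6GAL1 was highest in MCF10A. Members highest in MDA-MB-436 or lowest in HT-29 are not represented. Each run is the 250 bases before the only start that RefSeq's table (GRCh38.p14) lists for the gene, 5′ to 3′ on the gene's strand. Capitals mark CAGGTG or its complement CACCTG, the E-box that ZEB and SNAI repressors read, and GGGCGG or CCGCCC, the GC box.
GCNT3, chr15:59611533-59611782, plus strand: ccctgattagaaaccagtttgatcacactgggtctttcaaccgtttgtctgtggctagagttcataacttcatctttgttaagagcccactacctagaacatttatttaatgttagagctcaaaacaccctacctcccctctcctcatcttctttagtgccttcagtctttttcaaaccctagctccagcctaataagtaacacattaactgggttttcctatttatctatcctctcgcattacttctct
GALNT12, chr9:98807420-98807669, plus strand: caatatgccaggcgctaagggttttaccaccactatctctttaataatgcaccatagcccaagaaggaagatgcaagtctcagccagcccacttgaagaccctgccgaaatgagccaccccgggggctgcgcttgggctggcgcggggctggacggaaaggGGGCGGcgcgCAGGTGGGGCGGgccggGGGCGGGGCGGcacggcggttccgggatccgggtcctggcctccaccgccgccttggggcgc
GALNT3, chr2:165794248-165794497, minus strand: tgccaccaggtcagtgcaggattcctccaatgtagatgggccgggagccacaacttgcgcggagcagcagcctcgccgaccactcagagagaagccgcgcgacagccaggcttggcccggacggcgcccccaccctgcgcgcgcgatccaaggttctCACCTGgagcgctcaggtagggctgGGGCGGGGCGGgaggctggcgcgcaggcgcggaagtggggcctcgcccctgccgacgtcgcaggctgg
ST6GAL1, chr3:186930276-186930525, plus strand: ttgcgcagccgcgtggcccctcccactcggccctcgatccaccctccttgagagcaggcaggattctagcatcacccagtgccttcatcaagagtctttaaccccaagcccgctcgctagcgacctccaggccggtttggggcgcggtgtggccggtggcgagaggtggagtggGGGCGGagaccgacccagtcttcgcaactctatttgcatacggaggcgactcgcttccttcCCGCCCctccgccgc
GCNT3 held neither motif and had a GC content of 40.4%, against 67.2% in GALNT12, 71.6% in GALNT3 and 65.6% in ST6GAL1. The E-box of GALNT3 lay 93 to 88 bases before the start and that of GALNT12 79 to 74 bases before it, where it directly adjoined a GC box. GALNT12 held 4 GC boxes, GALNT3 held 2 and ST6GAL1 held 2; in GALNT12 and in GALNT3 a pair of them overlapped by a base. Over the 70 windows listed for 41 members, 20% held the E-box in either strand, against 17.5% of all 35116 windows of this length, and 58.6% held a GC box, against 42.6%. These matches describe letters only, and binding was not measured.

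Olfactory receptor genes, which epithelial lines hardly use, set the background at an intensity of 29.9, the 95th percentile of 228 such genes, whose highest value was 101. A value between 29.9 and 101 was counted as above background, but presence of the transcript was not shown by it. Above background were 33 members in HT-29 with IFN-γ, 36 in MDA-MB-436 and 35 in MCF10A, or 62.3%, 67.9% and 66%, against 66.6%, 68.8% and 65% of all genes. Marker genes separated the lines in part. The colon markers KRT20 and VIL1 had intensities of 1347.9 and 263 in HT-29 and were under background in both mammary lines. MDA-MB-436 had the N-cadherin gene CDH2 at 708, and MCF10A had the basal keratin KRT14 at 3732. The mesenchymal marker VIM did not separate the mammary lines, at 2037.5 in MDA-MB-436 and 1933 in MCF10A. CDH17, a further colon marker, was under background in HT-29 at 21.3. Markers of endothelium were under background in every line, as were PTPRC and CD3E of leukocytes, while CD14 was highest in MCF10A at 156 and the fibroblast collagen gene COL1A1 was at 51.8 in HT-29, 57.2 in MDA-MB-436 and 50.9 in MCF10A.

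Of the 53 members, 27 were above background in all 3 lines and 9 in none. Those in none were B3GALT2, B3GNT9, B4GALT1, FUT6, FUT9, GALNT5, GALNT8, GALNT9 and GALNT15. B4GALT1, a galactosyltransferase used widely in epithelial cells, had intensities of 4.99 in HT-29, 4.55 in MDA-MB-436 and 3.78 in MCF10A, and whether its cluster responds to the transcript was not tested. Between at least 1 pair of lines, 22 members were 4-fold or more apart with the brighter array above background, 41.5% of the set, where 13.4% of all genes met the same rule. When values under background were set to it, 15 of the 44 members detected in any line were still 4-fold apart, against 13.6% of detected genes. On the same raised values, 21 of these 44 stayed within 2-fold over all lines, 47.7% against 58.6% of detected genes. Among them were B3GALT5, GALNT13, GALNT17 and GCNT4, which belong to the 22 by measured values. Where the dimmer value of a pair was under background, its fold was taken against the background and is written "at least".

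**Figure D1:**
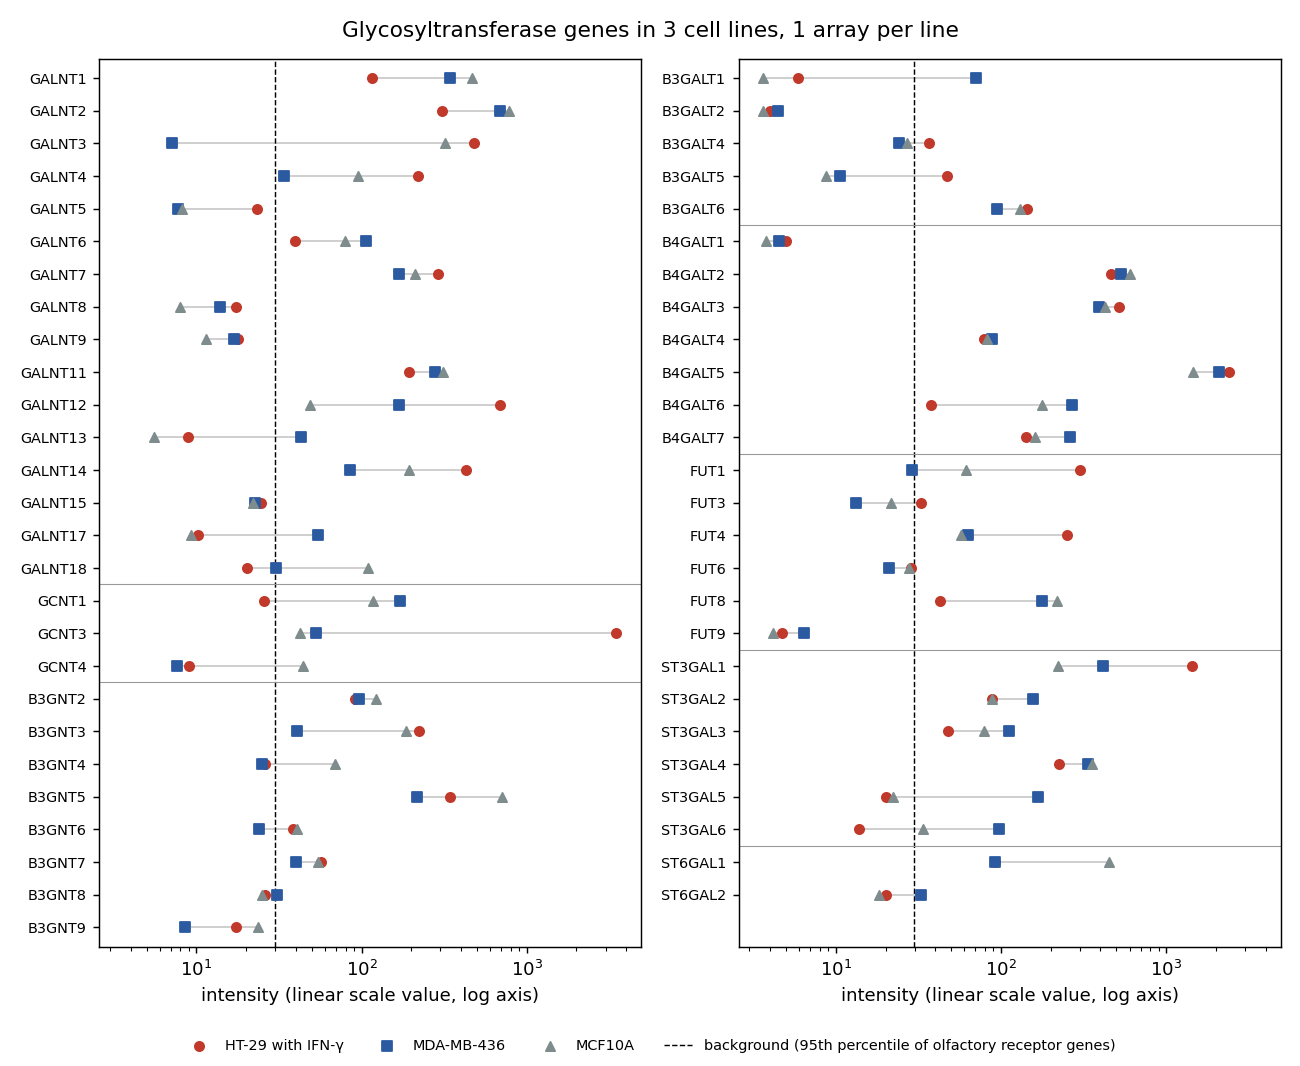
Intensity of the 53 members in HT-29 with IFN-γ (circles), MDA-MB-436 (squares) and MCF10A (triangles), 1 array per line, on a log axis with the background as a dashed line; grey rules separate families and points of a row are to be compared only with each other. GCNT3 reached 3491.7 in HT-29 against 52.8 in MDA-MB-436 and 42.6 in MCF10A, and GALNT3 lay under background in MDA-MB-436 alone; the HT-29 point of ST6GAL1 (91.5) is hidden by the MDA-MB-436 point (91.6).

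Of the 16 initiating enzymes that qualified, which are not the whole family, 8 were above background in all 3 lines and 4 in none. The 8 were GALNT1, GALNT2, GALNT4, GALNT6, GALNT7, GALNT11, GALNT12 and GALNT14. GALNT2, a broadly used initiating enzyme, had an intensity of 307 in HT-29 with IFN-γ, 692 in MDA-MB-436 and 781 in MCF10A. GALNT1, another broadly used one, was at 116 in HT-29, 343 in MDA-MB-436 and 468 in MCF10A, 4.02-fold lower in HT-29 than in MCF10A and just short of that limit after quantile normalization, with a log2 difference of -1.95. Both were thus lowest in HT-29, while GALNT7, which prefers peptides that already carry a sugar, was highest there, at 289 against 169 in MDA-MB-436 and 210 in MCF10A. GALNT11, which modifies Notch and LDL receptor family proteins, stayed within 2-fold.

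GALNT12, an enzyme prominent in the digestive tract, was at 692 in HT-29 with IFN-γ, 169 in MDA-MB-436 and 48.9 in MCF10A. It was 14.1-fold higher in HT-29 than in MCF10A, whose value lay under the highest olfactory receptor value, and 4.1-fold higher than in MDA-MB-436. Quantile normalization put its difference from MDA-MB-436 at 1.88 on the log2 scale, short of 4-fold. GALNT14 was at 430 in HT-29, 84.9 in MDA-MB-436 and 193 in MCF10A, and GALNT4, which also completes partly glycosylated mucin peptides, at 219, 34.1 and 94.7 in the same lines. In both genes HT-29 was over 4-fold above MDA-MB-436 (5.07-fold and 6.42-fold), with MCF10A between them.

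GALNT3, which glycosylates the phosphate hormone FGF23 and is used in many epithelia, had the largest gap among the GALNT genes. Its intensity was 479 in HT-29 with IFN-γ, 7.09 in MDA-MB-436 and 320 in MCF10A. It was at least 10.7-fold lower in the breast cancer line than in MCF10A, and HT-29 was at least 16-fold higher than MDA-MB-436. Its dimmer second cluster, at 21.8, 2.24 and 15.2 in HT-29, MDA-MB-436 and MCF10A, was also lowest in MDA-MB-436, though under background throughout. Epithelial genes differed alongside it: CDH1 was at 1607.2, 10.3 and 716 in the 3 lines in that order and EPCAM at 2107.1, 34.9 and 360. The repressor gene ZEB1 ran the other way, at 28.2, 289 and 48.3, as did ZEB2 at 15.2, 210 and 32.2. Their part in the GALNT3 difference was not tested.

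Among the dimmer GALNT genes, GALNT13 and GALNT17, both known mainly from neural tissue, were above background only in MDA-MB-436, at 43.2 and 54.6. These values exceeded background by no more than 1.82-fold and lay under the highest olfactory receptor value. GALNT18 was at 20.4 in HT-29, 30.3 in MDA-MB-436 and 110 in MCF10A, at least 3.68-fold lower in HT-29 than in MCF10A. GALNT6, an enzyme linked to fibronectin glycosylation in breast cancer cells, was at 39.8 in HT-29, 106 in MDA-MB-436 and 78.9 in MCF10A, so the breast cancer line and MCF10A were 1.34-fold apart.

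Branching enzymes, of which only GCNT1, GCNT3 and GCNT4 qualified, showed the widest difference of all members. GCNT3, the mucin-type branching enzyme of the gut, which makes core 2 and core 4 branches, had an intensity of 3491.7 in HT-29 with IFN-γ, 52.8 in MDA-MB-436 and 42.6 in MCF10A. HT-29 was 81.9-fold above MCF10A and 66.2-fold above MDA-MB-436. With the 14410 genes ordered by measured log2 difference, HT-29 minus the other line, from the highest, GCNT3 ranked 40th and 39th. Both mammary values were under the highest olfactory receptor value, so presence of the transcript there was not shown. GCNT1, the widely used core 2 enzyme, was arranged the other way, at 25.8 in HT-29, 170 in MDA-MB-436 and 118 in MCF10A. It was under background in HT-29, at least 5.69-fold lower than in MDA-MB-436 and at least 3.94-fold lower than in MCF10A. The HT-29 array thus had GCNT3 far above background and GCNT1 under it. GCNT4 was above background in MCF10A alone, at 44.2, against 7.66 in MDA-MB-436 and 9.01 in HT-29.

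Among the extension enzymes, B4GALT2, B4GALT3, B4GALT4 and B4GALT5, which add galactose to N-acetylglucosamine or to glucosylceramide, stayed within 2-fold over the 3 lines, and so did B4GALT7 and B3GALT6 of the proteoglycan linker. B4GALT5 was at 2398.7 in HT-29, 2074.7 in MDA-MB-436 and 1460.8 in MCF10A. B4GALT6, the other lactosylceramide synthase, was at 37.8 in HT-29, 268 in MDA-MB-436 and 178 in MCF10A, 7.09-fold and 4.7-fold lower in HT-29 than in the mammary lines.

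Of the B3GNT genes, 7 of 8 had a lower value in MDA-MB-436 than in MCF10A, although B3GNT9 was under background in both, while 7364 of all 14410 genes had a higher one. The B3GNT family had a median log2 difference of -1.12, or -0.45 with values under background set to it, beside medians of 0.02 and 0 over all genes. It was not the only family to shift. The ST3GAL family had a median of 0.87 in both ways of counting, with 5 of 6 genes higher in MDA-MB-436. The 2 ST6GAL genes had medians of -0.73 and -1.09. B3GNT3, which extends the unbranched core 1 chain, was at 224 in HT-29, 40.8 in MDA-MB-436 and 186 in MCF10A. MDA-MB-436 was 4.57-fold lower than MCF10A, and HT-29 was 5.49-fold higher than MDA-MB-436. B3GNT5, which starts lacto-series glycolipids, was at 345, 216 and 712 in HT-29, MDA-MB-436 and MCF10A, 3.3-fold lower in MDA-MB-436 than in MCF10A. B3GNT4 was above background only in MCF10A, at 68.9, and B3GNT6, the core 3 enzyme of normal colon mucosa, was near background in each line at 38.6, 23.8 and 40.8 in the same order. B3GNT2, the main polylactosamine enzyme, stayed within 2-fold. B3GALT5, which makes the type 1 chain that carries the CA19-9 epitope, was above background in HT-29 alone, at 47, against 10.6 in MDA-MB-436 and 8.77 in MCF10A. B3GALT1, also an enzyme of type 1 chains, was above background in MDA-MB-436 alone, at 70.2, at least 2.35-fold above both other lines.

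**Figure D2:**
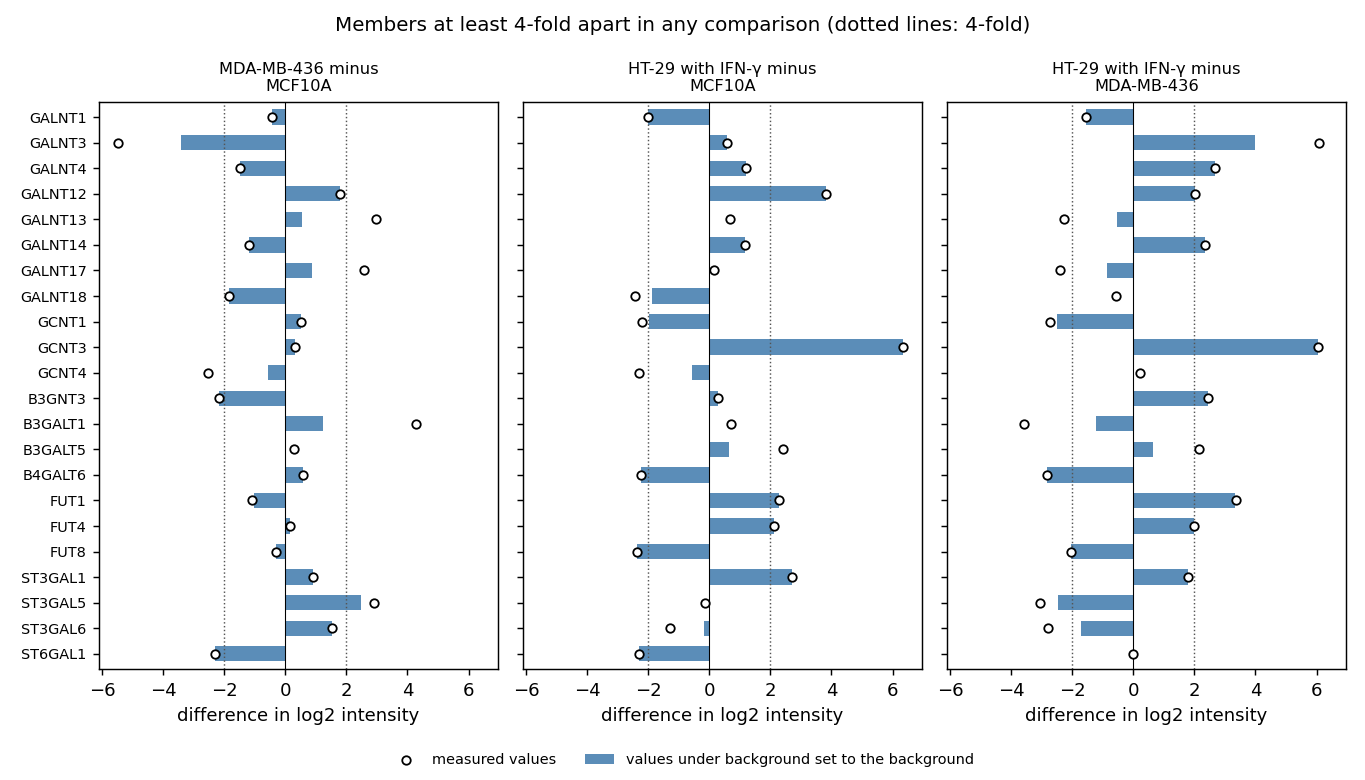
Difference in log2 intensity of the 22 members past 4-fold by measured values in any comparison, for MDA-MB-436 minus MCF10A, HT-29 with IFN-γ minus MCF10A and HT-29 with IFN-γ minus MDA-MB-436; open circles use measured values, bars use values raised to the background, and dotted lines mark 4-fold. GCNT3 is far to the right in both HT-29 panels, GALNT3 far to the left for MDA-MB-436 minus MCF10A, and B3GALT1, B3GALT5, GALNT13, GALNT17 and GCNT4 have bars well short of their circles. The bars of GALNT3 are also well short of its circles in both panels with MDA-MB-436, though still past 4-fold.

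Among the fucosyltransferases, FUT1 and FUT4 were highest in HT-29 and FUT8 was lowest there. FUT1, which makes the H structure of blood groups, was at 300 in HT-29 with IFN-γ, 29.1 in MDA-MB-436 and 61.4 in MCF10A, 4.89-fold above MCF10A and at least 10-fold above MDA-MB-436 in HT-29. FUT4, which makes Lewis x, was at 250, 63.5 and 57.3 in the same lines, 4.36-fold above MCF10A and 3.94-fold above MDA-MB-436 in HT-29. FUT8, the enzyme of core fucose on N-glycans, was lowest in HT-29, at 42.8, against 176 in MDA-MB-436 and 219 in MCF10A. That was 4.12-fold lower than MDA-MB-436, or -1.95 on the log2 scale after median centring, and 5.12-fold lower than MCF10A. FUT3, the Lewis enzyme, was barely above background in HT-29 at 32.6, against 13.2 in MDA-MB-436 and 21.5 in MCF10A. FUT3 and FUT6 are close paralogs whose probes can share signal, and FUT2 and FUT5, whose clusters are annotated with several genes, were not analysed here. Only FUT1, FUT3, FUT4, FUT6, FUT8 and FUT9 of the family qualified.

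Of the sialyltransferases past 4-fold by measured values in any comparison, ST3GAL1 was highest in HT-29, ST3GAL5 and ST3GAL6 in MDA-MB-436 and ST6GAL1 in MCF10A. ST3GAL1, which caps the unbranched core 1 chain with sialic acid, was at 1442.4 in HT-29 with IFN-γ, 413 in MDA-MB-436 and 220 in MCF10A, 6.54-fold above MCF10A and 3.5-fold above MDA-MB-436 in HT-29. The other ST3GAL genes were lower in HT-29 than in MDA-MB-436. ST3GAL5, the GM3 ganglioside synthase, was at 20.2 in HT-29, 167 in MDA-MB-436 and 22.3 in MCF10A, so that MDA-MB-436 was at least 5.57-fold above MCF10A and HT-29 at least 5.57-fold below MDA-MB-436. ST3GAL6, which caps lactosamine chains, was at 13.9, 97.3 and 33.9 in the same lines, at least 3.25-fold lower in HT-29 than in MDA-MB-436. ST3GAL2 and ST3GAL4 stayed within 2-fold over the lines, and ST3GAL3 was at 47.9 in HT-29, 112 in MDA-MB-436 and 79 in MCF10A. ST6GAL1, which caps N-glycan antennae, was at 91.5 in HT-29, 91.6 in MDA-MB-436 and 451 in MCF10A, 4.92-fold lower in each tumor line than in MCF10A. ST6GAL2 did not exceed 32.6.

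Counted by measured values, which can rest on a dimmer array under background, MDA-MB-436 had 4 members past 4-fold above MCF10A (7.55%, against 3.65% of all genes) and 4 past 4-fold below it (against 2.01%). Of the 4 higher ones only ST3GAL5 kept that distance when values under background were raised to it, against 2.13% of all genes. The members' median log2 difference was -0.06, beside 0.02 over all genes. HT-29 with IFN-γ had 6 members past 4-fold above MCF10A (11.3%, against 4.34% of all genes) and 7 below it (13.2%, against 3.5%), with a median of 0.13 beside 0.11. The 7 became 4 with values raised to the background, against 2.76% of all genes. Against MDA-MB-436 it had 8 above and 8 below (15.1% each, against 4.21% and 4.68%), with a median of 0.09 beside 0.08. The 8 below became 4 on the raised values, against 3.15% of all genes. Medians were thus near those of all genes while members lay on both sides, and the comparisons share arrays. Quantile normalization turned the sign of the median for MDA-MB-436 minus MCF10A and for HT-29 minus MCF10A. By measured values HT-29 was past 4-fold above both other lines in GCNT3, GALNT12, FUT1 and B3GALT5 (7.55%, against 2.46% of all genes), where the bound for B3GALT5 was only 1.57-fold. It was past 4-fold below both in GCNT1, B4GALT6 and FUT8 (5.66%, against 1.7%), with a bound of 3.94-fold for GCNT1 against MCF10A. MDA-MB-436 was past 4-fold below both in GALNT3 and B3GNT3 (3.77%, against 0.819%) and above both in ST3GAL5, B3GALT1, GALNT13 and GALNT17 (7.55%, against 2.16%), the bounds being 5.57-fold, 2.35-fold, 1.44-fold and 1.82-fold in that order. MCF10A was past 4-fold above both in ST6GAL1 and GCNT4 (3.77%, against 0.881%), with a bound of 1.48-fold for GCNT4, and below both in 0 members, against 1.03% of all genes.

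Other genes of the pathway were taken from lists chosen by function. Over all genes, 13.4% were past 4-fold between at least 1 pair of lines, and 2.01% to 4.68% in a single comparison and direction. C1GALT1, which makes core 1, was at 314 in HT-29, 382 in MDA-MB-436 and 234 in MCF10A, and its chaperone C1GALT1C1 was near background in each line, at 32.3, 20.2 and 26.8. Of 15 measured genes of core synthesis and of the ST6GALNAC and ST8SIA families, 1 was past 4-fold lower by measured values in MDA-MB-436 than in MCF10A, ST6GALNAC2, at 18.6 against 101 and thus at least 3.38-fold. One was past 4-fold higher in HT-29 than in MCF10A, ST6GALNAC3, at 56.2 against 12.8 and thus at least 1.88-fold. The 2 past 4-fold lower in HT-29 than in MDA-MB-436 were the ganglioside enzyme ST6GALNAC5, at 34.8 against 144, and the polysialyltransferase ST8SIA4, at 5.58 against 38.1 and thus at least 1.27-fold. ST6GALNAC1, which makes the sialyl-Tn antigen, was at 34.3, 14.3 and 19.1 in HT-29, MDA-MB-436 and MCF10A. Of 8 GalNAc and blood group transferases, B4GALNT3, which makes the LacdiNAc structure, was 5.52-fold above MCF10A and 5.84-fold above MDA-MB-436 in HT-29, at 271 against 49 and 46.4. B3GALNT1, the globoside synthase, was above background in MCF10A alone, at 44.3, and the other 6 were less than 4-fold apart. Among 8 N-glycan branching genes, MGAT4A was above background only in MDA-MB-436, at 91, and MGAT5 was at 243 in HT-29, 93.7 in MDA-MB-436 and 159 in MCF10A.

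Of 14 measured genes of donor sugar supply, GMDS, GNE and GFPT1 were past 4-fold in at least 1 comparison, beside 13.4% of all genes. GMDS, the first enzyme of GDP-fucose synthesis from mannose, was at 821 in HT-29 with IFN-γ, 63.4 in MDA-MB-436 and 281 in MCF10A. MDA-MB-436 was 4.42-fold lower than MCF10A, and HT-29 was 12.9-fold higher than MDA-MB-436. The next enzyme, GFUS, was at 1303.3, 1810 and 1245.8 in HT-29, MDA-MB-436 and MCF10A, and the Golgi GDP-fucose transporter gene SLC35C1 at 264, 362 and 385, so neither shared the GMDS pattern. GNE, the first enzyme of sialic acid synthesis, was highest in MDA-MB-436, at 389, against 87.4 in HT-29 and 64.8 in MCF10A, 6-fold above MCF10A. GFPT1, the entry enzyme of the hexosamine pathway, was at 3737.4 in HT-29, 1649.8 in MDA-MB-436 and 789 in MCF10A, 4.74-fold above MCF10A in HT-29. The other 11 supply genes were less than 4-fold apart in every comparison.

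**Figure D3:**
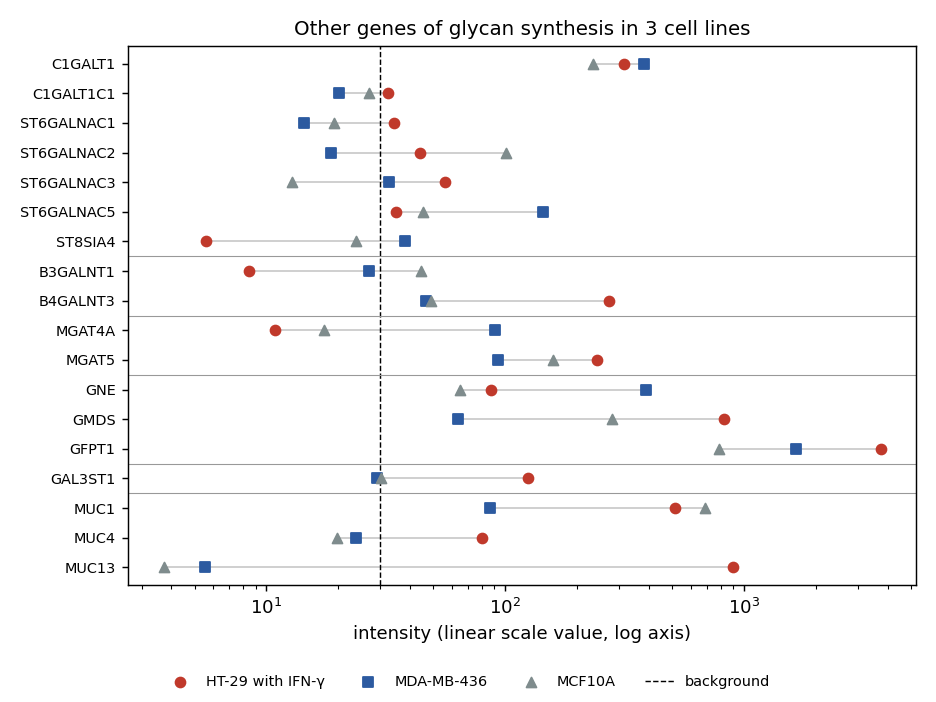
Intensity of other glycan synthesis and mucin genes in HT-29 with IFN-γ (circles), MDA-MB-436 (squares) and MCF10A (triangles), 1 array per line, on a log axis with the background as a dashed line; the genes are those past 4-fold in any comparison plus C1GALT1, C1GALT1C1, ST6GALNAC1, ST6GALNAC2 and MGAT5, and grey rules separate the lists. GMDS was at 821, 63.4 and 281 and GNE at 87.4, 389 and 64.8 in HT-29, MDA-MB-436 and MCF10A.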

How the data were processed

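Total RNA of 3 cell lines was measured on exon arrays, 1 array per line. The authors deposited 1 linear intensity per array for each of 18708 transcript clusters; the summary method, background correction and normalization between arrays are not given in the sources used here, and hg19 is the build in the submitters' processing notes. Column medians were 75.9 in HT-29, 81 in MDA-MB-436 and 75.1 in MCF10A. The platform annotation named 14733 clusters with a single symbol, updated through gene identifiers against RefSeq; 2875 had several symbols and 1100 none, and 10 clusters with several symbols, at least 1 of them from these families, were left out. The brightest cluster per gene was used. Differences were taken as log2 of the deposited intensity, and a gene was counted at a log2 difference of at least 2 with the brighter array above background. No test was possible; the number of arrays limits the precision. The members, the lists and the naming rule (all members, list genes past 4-fold and a few fixed ones) were chosen with earlier results of these data known. The counting step was tested on simulated data with 8-fold changes in genes well above background, which a 4-fold limit was bound to find. Changes in genes near background were not simulated. Probes of related genes can share signal. Calculations used numpy 2.4.6 and pandas 2.3.3 under Python 3.11.15, with figures from matplotlib 3.10.9.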

Additional observations from a re-analysis of the deposited data

How the results depend on the processing

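Counts of members past 4-fold stayed within 1.5 times the reported ones under quantile normalization, median centring, no filter on dim genes, the median over a gene's clusters and unupdated symbols. Raising values under background to it, chosen after seeing the data, left 1 of 53 members higher for MDA-MB-436 minus MCF10A, against 2.13% of all genes. It left 4 lower when HT-29 was set against either mammary line, against 2.76% of all genes for MCF10A and 3.15% for MDA-MB-436. A background of 60.6 (99th percentile) left 2 members higher for MDA-MB-436 minus MCF10A, against 3.06% of all genes. At 2-fold, 10 were lower for MDA-MB-436 minus MCF10A (against 8.74% of all genes) and 11 for HT-29 minus MCF10A (against 10.09%). At the same limit 6 were higher for MDA-MB-436 minus MCF10A, against 8.76% of all genes. At 8-fold, MDA-MB-436 minus MCF10A had 1 higher and 1 lower, against 1.67% and 0.92% of all genes. HT-29 minus MCF10A had 2 higher and 0 lower, against 2.3% and 1.64%. HT-29 minus MDA-MB-436 had 3 higher and 2 lower, against 2.03% and 2.3%. The excess of members over all genes seen at 4-fold was thus not kept in every setting. After quantile normalization the members' median was 0.02 for MDA-MB-436 minus MCF10A and -0.05 for HT-29 minus MCF10A; the cause was not tested. Over all genes the medians there were -0.05 for MDA-MB-436 minus MCF10A and -0.01 for HT-29 minus MCF10A, from 0.02 and 0.11. After median centring, MDA-MB-436 minus MCF10A had a median of -0.17 over the members and -0.09 over all genes. FUT4 joined the members at least 4-fold higher in HT-29 than in MDA-MB-436 under quantile normalization and under median centring. No called member changed direction under either. No paired analysis was possible because each line had 1 array, and no replicate could be left out.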

Other observations

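Mucin proteins carry the chains these enzymes build. Of 4 mucin genes with a cluster of their own, MUC13, a transmembrane mucin of the gut, was at 898 in HT-29 with IFN-γ, 5.55 in MDA-MB-436 and 3.73 in MCF10A, at least 30-fold above both. MUC1, the epithelial membrane mucin, was at 513, 86 and 688 in the same lines, 8-fold lower in MDA-MB-436 than in MCF10A, so its low line was also that of GALNT3 and B3GNT3. MUC4 was above background in HT-29 alone, at 79.9, and MUC17 in none. The listed mucin genes MUC2, MUC3A, MUC5AC, MUC5B, MUC6, MUC12, MUC16 and MUC20 were not analysed. GAL3ST1, the sulfatide sulfotransferase, was at 125 in HT-29, 29 in MDA-MB-436 and 30.3 in MCF10A. It was the only one of 9 sulfotransferase genes past 4-fold in any comparison, beside 13.4% of all genes. The 6 sialidase and fucosidase genes, which remove the caps, had no member past 4-fold in any comparison. Lists this short cannot show a contrast with that share or with the glycosyltransferases. The lysosomal sialidase gene NEU1 was at 353, 551 and 285 in HT-29, MDA-MB-436 and MCF10A.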
